A study of Mus musculus with 8 samples.

Results

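The clustered protocadherins are cell surface proteins of the cadherin superfamily whose genes lie next to each other on mouse chromosome 18 in an alpha, a beta and a gamma cluster. Members were all probe sets of the array whose listed gene symbols name only genes of these clusters. This rule used no measured value, but it was chosen with earlier results of these data known. The rule found 29 of the 45037 tested probe sets, which measure 24 of the 17097 genes that a probe set names alone. Of these, 27 belonged to the beta cluster and covered all 22 of its genes, Pcdhb1 to Pcdhb22, and 2 belonged to the alpha cluster, 1 each for Pcdha1 and Pcdha10. Each listed 1 gene. The remaining alpha genes, of 14 in the reference annotation, and the 22 gamma genes were not analysed here. Of the 24 measured genes, 20 had 1 probe set, Pcdhb4, Pcdhb14 and Pcdhb15 had 2, and Pcdhb16 had 3.

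Clustered protocadherins are best known from neurons, where each cell switches on its own small combination of them and the proteins bind like to like between cell membranes, which lets a cell tell its own branches from those of others. An alpha or gamma transcript joins a variable exon to constant exons that the whole cluster shares, whereas each beta gene is a single exon with a promoter of its own and no constant part. The promoters are bound by CTCF and cohesin when active, and DNA methylation and repressive histone marks keep them silent in many cells. Such marks include methylation of histone H3 at lysine 9. G9a, encoded by Ehmt2, is one of the enzymes that methylate this site, and its action at these promoters was not measured here.

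RNA came from interfollicular epidermis, which covers the skin between the hair follicles, of mice labelled as 15 weeks old. In 4 samples the animals carried a conditional knockout of G9a (cKO) and in 4 they were wild type for it (WT). Both groups were treated on shaved back skin with DMBA, a carcinogen, at 0.25 mg/ml and with TPA, which promotes tumour growth, at 0.02 mg/ml, each in acetone and once a week over 6 weeks, starting at 8 weeks of age, and the epidermis is labelled pre-neoplastic. No untreated skin was analysed here, so that both groups share this treatment. The labels name neither the Cre line or promoter behind the knockout, nor the deleted exons, the strain or the sex, and give no animal for each replicate. P-values therefore measure the spread between these samples.

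The 8 samples were measured on 8 arrays of 1 colour, and values are log2 expression after RMA. Array medians lay between 5.72 and 5.80. Of the 2 probe sets of Ehmt2, 1460692_PM_at fell by 2.88 (SE 0.19, limma adjusted p = 0.000244), with all cKO arrays below all WT arrays, and 1426888_PM_at stood at 0.012 (adjusted p = 0.996). On the first principal component of all tested probe sets, which held 36.9% of the variance, WT 4 stood at -23.5 and the other WT arrays at 11.4 to 20.6, while cKO 2 stood at 10.7 and the other cKO arrays at -19.2 to 0.540. The differences of Pcdhb19, Pcdhb16 and Pcdhb5 and the counts of called probe sets are given below with and without these arrays. Keratinocyte markers were high and alike in both groups: the mean over the 18 probe sets of 11 genes, among them Krt5, Krt14 and Trp63, was 11.4 to 11.5 in every array and none of them passed the test.

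Of the measured clustered protocadherins, 1 beta gene fell in G9a cKO epidermis and the others did not pass the test. The measured signal of Pcdhb19 was lower in cKO by 1.02 on the log2 scale, a 2.02-fold difference in signal that may understate the difference in transcript if the cKO signal is partly background. It was the 1 member past the threshold (limma, Benjamini-Hochberg adjusted p under 0.05 over all 45037 probe sets), so that 3.45% of the members were called lower, where 0.0733% of all tested probe sets were, 33 in number. No member was called higher, against 0.393% of all tested probe sets, and 28 members did not pass. The other 21 beta genes and both alpha genes thus had no called probe set.

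Pcdhb19 lies near the far end of the beta cluster, between Pcdhb18 and Pcdhb20. Its probe set 1420443_PM_at read 5.36, 4.90, 5.39 and 5.15 in WT 1 to 4 and 4.39, 4.03, 4.13 and 4.19 in cKO 1 to 4 (log2). Every cKO array was lower than every WT array, and the gap between the highest cKO and the lowest WT array was larger than the range within either group. The means were 5.20 ± 0.22 in WT and 4.18 ± 0.15 in cKO (SD, n = 4 each). The log2 difference was -1.02 (SE 0.11, 95% interval -1.27 to -0.76, limma adjusted p = 0.00523). By exact permutation, two-sided, p was 0.0286, and no smaller value is possible with 70 arrangements of 4 against 4. Without WT 4 and cKO 2 together the difference was -0.98 (limma adjusted p = 0.0184), and without any 1 array it lay between -1.11 and -0.95, with a highest adjusted p of 0.0288. In bulk epidermis, fewer cells that express the gene and less RNA per cell cannot be told apart.

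**Figure D1:**
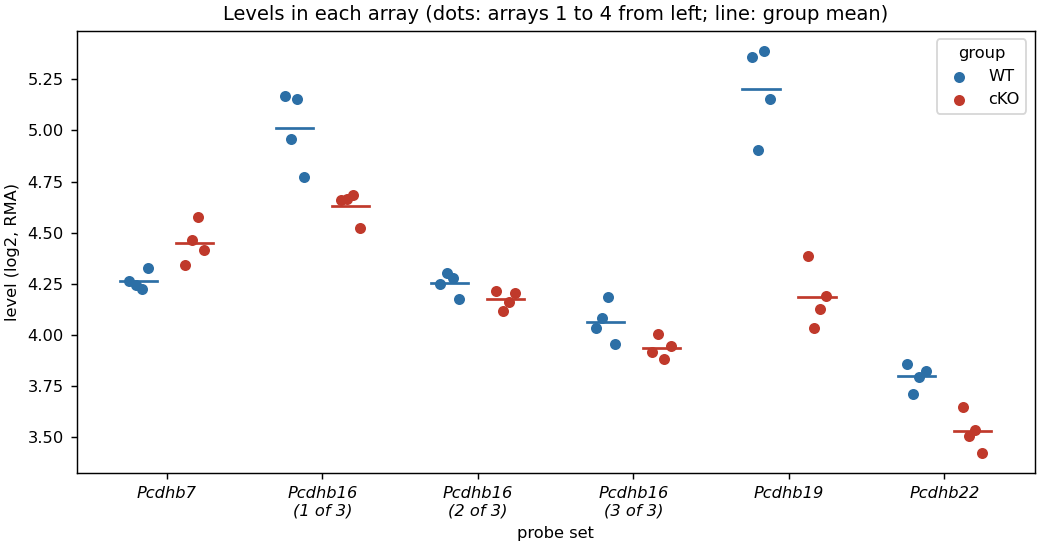
Level (log2, RMA) of 6 beta cluster probe sets in each of the 8 arrays, with WT in blue, cKO in red, dots for arrays 1 to 4 from left to right and a line for the group mean. In Pcdhb19 the cKO arrays sit at 4.03 to 4.39 and the WT arrays at 4.90 to 5.39, while the groups of the other probe sets lie closer together or overlap.

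All 29 members had a WT mean below the median of all tested probe sets, which was 5.74, and their WT means ran from 3.64 to 5.20 and their cKO means from 3.53 to 5.02 (log2). As a reference for genes not known from epidermis, 83 probe sets of olfactory and vomeronasal receptors, which sensory neurons of the nose express, had a median WT mean of 4.01 and a 95th percentile of 5.27. No member exceeded that percentile in WT, and none exceeded that of the cKO means, 5.29. The WT mean of Pcdhb19 exceeded those of 94.0% of the receptor probe sets and its cKO mean exceeded the cKO means of 65.1%. Since probe sets bind with different strength, these ranges place the members low on the array but set no background level for any 1 probe set, and levels of different genes are not ranked here. For Pcdhb19 the WT arrays lay above the level that the same probe set reached in cKO, as given above. For probe sets that did not differ, whether any transcript was measured is not known.

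**Figure D2:**
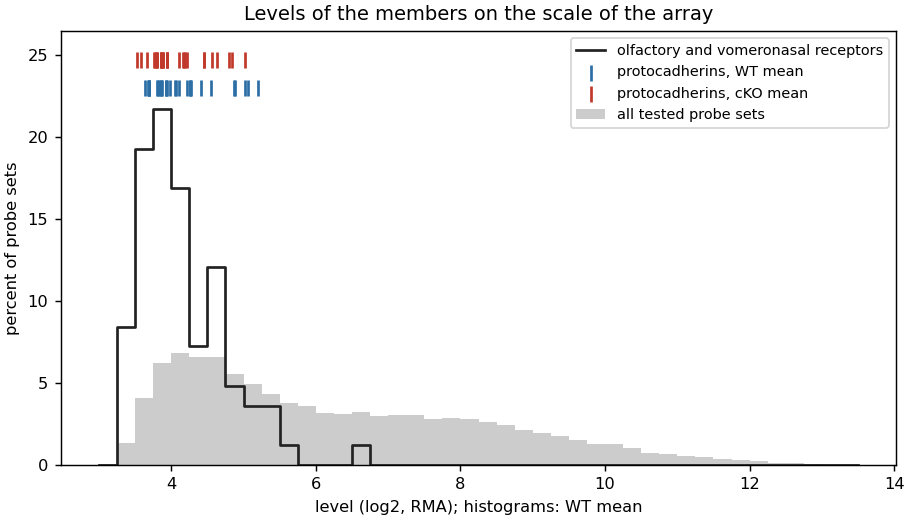
WT means of all 45037 tested probe sets (grey bars) and of 83 olfactory and vomeronasal receptor probe sets (black line) as percent of probe sets per bin of log2 level, with ticks for the WT and cKO means of the 29 clustered protocadherin probe sets. The ticks lie between 3.53 and 5.20, over the range of the receptors and below the array median of 5.74.

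Pcdhb16, 3 genes before Pcdhb19, was measured by 3 probe sets that all stood lower in cKO, and none passed the test. Probe set 1441358_PM_at read 5.17, 4.96, 5.15 and 4.77 in WT 1 to 4 and 4.66, 4.66, 4.69 and 4.52 in cKO 1 to 4 (log2). All cKO arrays lay below all WT arrays, with WT 4 close above them. The log2 difference was -0.38 (SE 0.09, limma adjusted p = 0.163), and the exact permutation test gave p = 0.0286. Here WT 4 decided the call: without it the difference was -0.46 and passed (limma adjusted p = 0.0227), and without WT 4 and cKO 2 it was -0.47 (adjusted p = 0.0325). It also passed with arrays weighted by their scatter (-0.43, adjusted p = 0.0227). Calls over all probe sets rose too, from 210 in the main fit to 356 without WT 4. They rose to 657 without both arrays and to 758 with array weights, so the gain was not particular to Pcdhb16. Leaving out WT 4 and cKO 2 together was chosen after seeing the data. The other probe sets of Pcdhb16 overlapped between the groups and differed by -0.13 (SE 0.06, limma adjusted p = 0.620) and -0.078 (SE 0.05, adjusted p = 0.774). The 3 probe sets thus pointed the same way and differed in size.

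Pcdhb22, the last gene of the beta cluster, read 3.86, 3.71, 3.80 and 3.82 in WT 1 to 4 and 3.65, 3.51, 3.54 and 3.42 in cKO 1 to 4 (log2). The groups did not overlap, and the WT mean exceeded those of 6.51% of all tested probe sets. The log2 difference of -0.27 (SE 0.06) did not pass (limma adjusted p = 0.124, exact permutation p = 0.0286). It passed in the fit with array weights (-0.27, adjusted p = 0.0278), which called 758 of all tested probe sets, against 210 in the main fit. No other alternative called it.

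Between and around these genes the differences were smaller. The neighbours of Pcdhb19, Pcdhb18 and Pcdhb20, stood at -0.068 (SE 0.05, limma adjusted p = 0.838) and -0.14 (SE 0.06, adjusted p = 0.640). Pcdhb20 read 3.86 to 4.03 in WT and 3.72 to 3.94 in cKO, so that the groups overlapped. The difference was -0.095 for Pcdhb17 (SE 0.05, limma adjusted p = 0.692) and -0.088 for Pcdhb21 (SE 0.07, adjusted p = 0.898). For Pcdhb21, cKO 1 at 4.98 and cKO 3 at 4.77 lay within the range of the WT arrays, 4.76 to 4.998, and cKO 4 lay just below it. A fall of the size of Pcdhb19 was outside the 95% interval of each of these neighbours. The lowest bound was -0.29, for Pcdhb20. For Pcdhb18 and Pcdhb20, with WT means of 3.83 and 3.95, such a fall would end below every value on the arrays. Their intervals therefore cannot tell whether the transcript fell as far. Pcdhb17, with a WT mean of 4.26, would end close to the lowest values. Pcdhb21, with a WT mean of 4.88, had more room. The probe sets of Pcdhb14 stood at -0.12 (SE 0.06) and -0.038 (SE 0.05), and those of Pcdhb15 at -0.062 (SE 0.08) and 0.042 (SE 0.06). The first of the Pcdhb14 values comes from a probe set with the suffix _x_at, and the first of the Pcdhb15 values from one with the suffix _s_at, which mark probes that other transcripts may share. Beta genes are similar in sequence, so that the share of each gene in a signal is uncertain.

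The largest rise in the beta cluster was that of Pcdhb7, and it did not pass. Pcdhb7 read 4.26, 4.25, 4.23 and 4.33 in WT 1 to 4 and 4.34, 4.46, 4.58 and 4.42 in cKO 1 to 4 (log2). All cKO arrays lay above all WT arrays, but cKO 1 exceeded WT 4 by little. The log2 difference was 0.18 (SE 0.06, 95% interval 0.057 to 0.31, limma adjusted p = 0.344, exact permutation p = 0.0286). Pcdhb11 and Pcdhb12 also had cKO arrays that all lay above the WT arrays, with differences of 0.068 (SE 0.04) and 0.083 (SE 0.04) and limma adjusted p of 0.749 and 0.668. Pcdhb9 and Pcdhb10 stood at 0.098 (SE 0.05) and 0.11 (SE 0.06) and overlapped.

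The first genes of the beta cluster did not pass. Pcdhb1, Pcdhb2, Pcdhb3, Pcdhb6, Pcdhb8 and Pcdhb13 lay between -0.020 and 0.014 (log2 difference), and the probe sets of Pcdhb4 stood at -0.037 and 0.0025. Pcdhb5 read 5.0, 5.10, 5.05 and 5.11 in WT 1 to 4 and 5.07, 4.91, 5.03 and 5.05 in cKO 1 to 4. Its log2 difference was -0.050 (SE 0.05, 95% interval -0.16 to 0.064, limma adjusted p = 0.928).

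The alpha cluster was represented by only 2 probe sets. Pcdha1, the first gene of the cluster, read 3.70, 3.55, 3.66 and 3.65 in WT 1 to 4 and 3.62, 3.64, 3.56 and 3.52 in cKO 1 to 4 (log2), a difference of -0.055 (SE 0.05, 95% interval -0.17 to 0.056, limma adjusted p = 0.912). Its probe set carries the suffix _s_at, and the alpha transcripts share their constant exons, so that it may not measure Pcdha1 alone. Pcdha10 read 4.77, 4.95, 4.94 and 4.83 in WT and 4.93, 4.81, 4.74 and 4.87 in cKO, a difference of -0.035 (SE 0.06, 95% interval -0.17 to 0.099, adjusted p = 0.973). The groups overlapped in both.

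Over the whole beta cluster, 17 of 27 probe sets stood lower in cKO and 10 stood higher, so that 63.0% were lower, against 47.0% of all tested probe sets. The median log2 difference of the beta probe sets was -0.037, against 0.0053 for all tested probe sets. It was -0.0169 with the probe sets of a gene averaged and -0.0185 with only the highest probe set of each gene. Groups did not overlap in 6 members. All cKO arrays lay below all WT arrays in 3 (Pcdhb16, Pcdhb19 and Pcdhb22), or 10.3%, against 1.72% of all tested probe sets, and above them in 3 (Pcdhb7, Pcdhb11 and Pcdhb12), or 10.3%, against 3.17%. Without adjustment, 4 members (13.8%) were lower at p under 0.05 and 1 (3.45%) was higher, where 2.92% and 5.06% of all tested probe sets were. Members are not independent of each other, since they share arrays and similar sequences, and no test was made over them as a list.

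Within-group SDs of the members ran from 0.012 to 0.22, with a median of 0.067 in cKO and 0.063 in WT. Of the 28 members that were not called, 27 had a 95% interval that lay within 0.5 of 0 on the log2 scale, and 25 within 0.3. The exceptions at 0.3 were 1441358_PM_at of Pcdhb16, Pcdhb22 and Pcdhb7. The intervals bound the measured signal, which need not follow the transcript where a probe set reads mostly background.

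**Figure D3:**
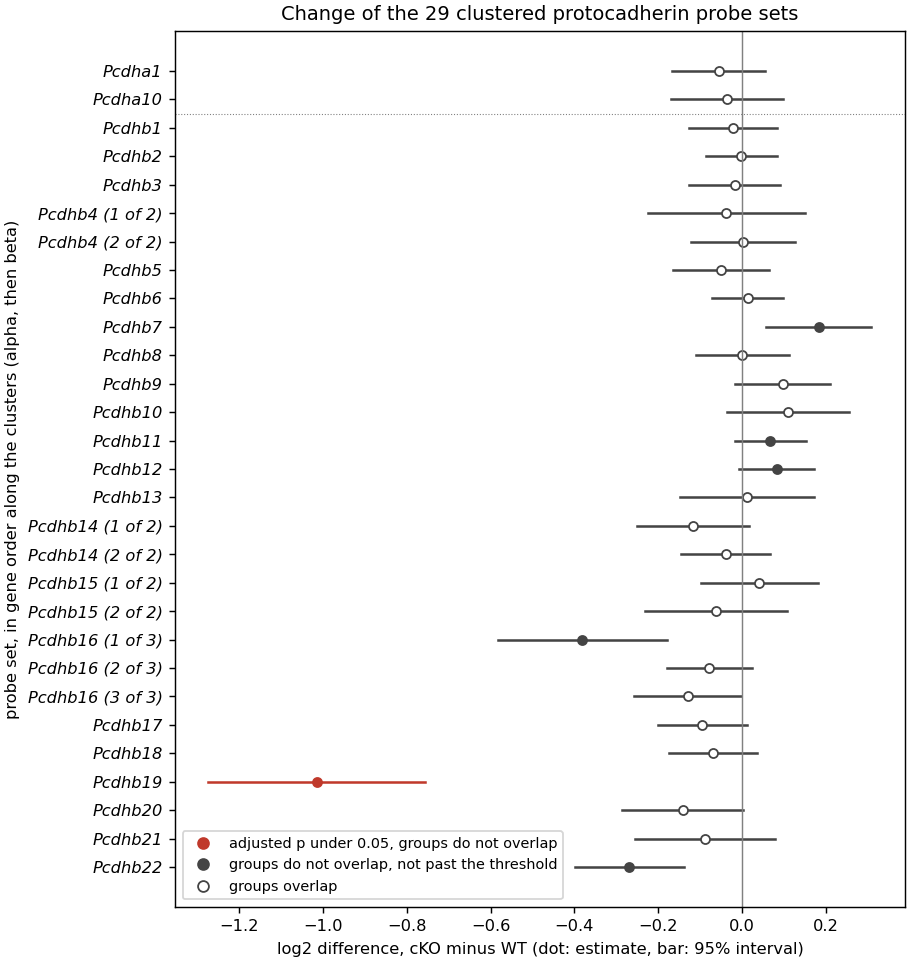
Log2 difference, cKO minus WT, of the 29 probe sets with 95% intervals from limma, in gene order from Pcdha1 to Pcdhb22, with filled dots where the groups do not overlap and red where the adjusted p is under 0.05. Pcdhb19 lies at -1.02, and all others lie between -0.38 and 0.18.

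When the beta probe sets were set out in gene order, lower values gathered in the second stretch of the cluster. From Pcdhb14 to Pcdhb22, 12 of 13 probe sets stood lower in cKO, with a median log2 difference of -0.095 and the exception at 0.042 (Pcdhb15). From Pcdhb1 to Pcdhb13, 5 of 14 stood lower, and the median was 0.0070, with a range from -0.050 to 0.18. The point of division was chosen after the values were seen. Across the 27 probe sets Spearman's rho between place and difference was -0.65, and Pearson's r was -0.46. Without Pcdhb19 rho was -0.61. This is a description across probe sets that share 8 arrays. Pcdhb4, Pcdhb14, Pcdhb15 and Pcdhb16 each enter it with more than 1 probe set, so the counts are not counts of genes.

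The arrays differed in the same stretch. Averaged over the 12 probe sets from Pcdhb14 to Pcdhb22 other than that of Pcdhb19, the deviation from each probe set's own mean was 0.055, 0.067, 0.11 and 0.00074 in WT 1 to 4 and -0.021, -0.058, -0.098 and -0.061 in cKO 1 to 4 (log2). WT 4 was the lowest WT array and cKO 1 the highest cKO array. Over Pcdhb1 to Pcdhb13 the same average was -0.050, 0.0070, -0.010 and -0.011 in WT and 0.061, -0.0097, 0.018 and -0.0047 in cKO, so that the groups overlapped. These averages follow from the choice of the stretch and carry no test. Counted over the 29 members, the lowest value of the 8 arrays fell most often in cKO 4 (7 members), and 6 times each in cKO 3 and WT 1.

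**Figure D4:**
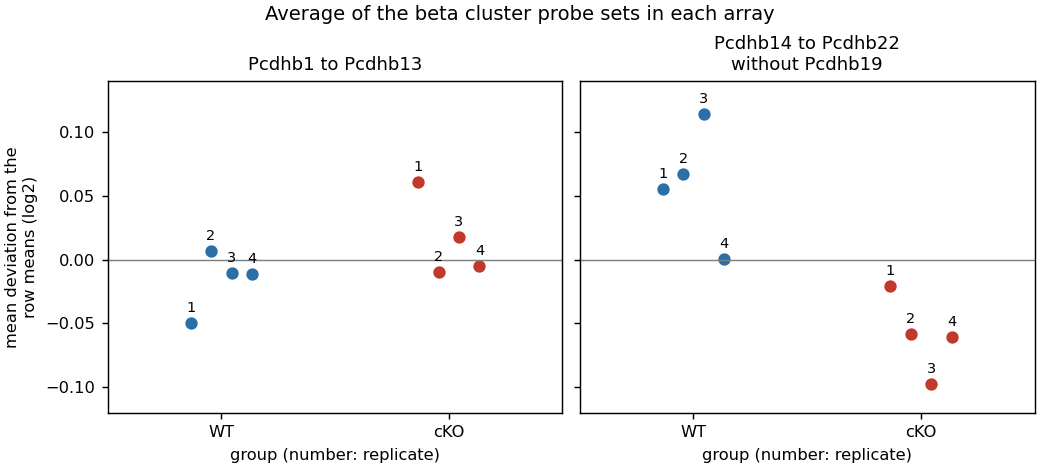
Mean deviation (log2) of the beta cluster probe sets from their own means in each array, left for Pcdhb1 to Pcdhb13 and right for Pcdhb14 to Pcdhb22 without Pcdhb19, with WT in blue, cKO in red and numbers for replicates. On the right the WT arrays lie between 0.00074 and 0.11 and the cKO arrays between -0.098 and -0.021, whereas on the left the groups overlap. The division was chosen after the values were seen, so the contrast of the panels follows from it.

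Genes next to the clusters did not pass. Of 22 tested genes, 10 before the alpha cluster, 10 after the gamma cluster and 2 between the first and last clustered gene, none of 40 probe sets was called, and their median log2 difference was 0.0074. Of all tested probe sets only 0.0733% were called lower and 0.393% higher, so a list of this size would seldom hold a call. Slc25a2, a mitochondrial carrier gene, and Taf7, a subunit of the general transcription factor TFIID, both lying between clustered genes, stood at -0.017 (SE 0.05) and -0.050 (SE 0.05). The nearest tested gene before the clusters, Zmat2, stood at 0.023 and -0.0083, and the nearest after them, Diaph1, a formin that nucleates actin filaments, at 0.15, 0.073 and 0.0033. The largest difference was that of Rell2, with 0.22 (SE 0.05, limma adjusted p = 0.125) at 1 probe set and -0.13 at its other. Gnpda1 stood at 0.16 (SE 0.12), and Pcdh1 at 0.14 (SE 0.06).

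Other genes taken here as possible regulators of these promoters did not pass. Ehmt2 itself, given above, is not in this list. None of the 63 probe sets of 25 genes for CTCF, cohesin and its loaders, DNA methylation, H3K9 methylation and related repressors was called, over a range of -0.20 to 0.16 with a median of -0.025 (lowest limma adjusted p = 0.482). With 0.0733% of all tested probe sets called lower and 0.393% higher, the lack of a call here says little about these genes. The largest differences were those of Uhrf1, which guides maintenance DNA methylation, at -0.20 (SE 0.10) and -0.11, of Lrif1, a partner of the repressor SMCHD1, at 0.16 (SE 0.06), of Nipbl, the cohesin loader, at -0.16 (SE 0.07) with its other 4 probe sets from -0.16 to -0.021, and of the H3K9 methyltransferase gene Setdb1 at -0.15 (SE 0.11) and 0.048.

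Of genes taken here as partners and effectors of the proteins, 21 were measured. Among their 36 probe sets, 1 was higher, where 0.393% of all tested probe sets were, and 35 did not pass. It belonged to Fyn, a Src family kinase, and 1417558_PM_at read 6.45, 6.65, 6.54 and 6.45 in WT 1 to 4 and 6.99, 6.98, 7.00 and 6.95 in cKO 1 to 4 (log2). The groups did not overlap, and the log2 difference was 0.46 (SE 0.05, limma adjusted p = 0.00635), with a highest adjusted p of 0.0370 without any 1 array. The other probe set of Fyn stood at 0.075 (SE 0.06, adjusted p = 0.877). Ptk2b, the kinase PYK2, which protocadherins of these clusters bind and hold in check, stood at 0.25 (SE 0.06, limma adjusted p = 0.183). Cyfip2, of the WAVE complex that drives actin branching, stood at 0.23 and 0.13, and Prkca, protein kinase C alpha, at -0.19, -0.095 and -0.067.

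Cadherin relatives outside the clusters were not called. None of 39 probe sets of 23 protocadherin and related genes passed, with a median of 0.011. Among all tested probe sets 0.0733% were called lower and 0.393% higher. The largest difference was that of Pcdh15, known from the tip links of inner ear hair cells, at 0.25 (SE 0.06, limma adjusted p = 0.151), while its other probe sets stood at -0.074 and -0.032. Cdhr1 stood at -0.19 (SE 0.11), Pcdh18 at 0.14, 0.059 and 0.029. None of 32 probe sets of 15 classical and desmosomal cadherin genes passed: Dsc2, a desmosomal cadherin, stood at -0.36 (SE 0.09, adjusted p = 0.168) and 0.030, Cdh4 at 0.35 (SE 0.07, adjusted p = 0.0845) and 0.25, Dsc1 at -0.21 at both probe sets, and Cdh13 at 0.16, 0.11, 0.056 and -0.053.

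Markers of nerve, pigment and other cell types were not called. The mean over the 15 probe sets of 7 neuronal genes, Snap25 and Tubb3 among them, was 4.34 to 4.41 in WT arrays and 4.35 to 4.41 in cKO arrays (log2). For 16 probe sets of 5 Schwann cell and nerve genes it was 5.16 to 5.26 and 5.17 to 5.23, and for 14 probe sets of 8 melanocyte genes 4.82 to 4.88 and 4.80 to 4.97. Single probe sets of these lists were higher: the WT mean lay above the median of all tested probe sets in 6 of the 16 Schwann cell and nerve probe sets, up to 7.78 for Ngfr, and in 3 of the 14 melanocyte probe sets, up to 6.73 for Mitf, but in 0 of the 15 neuronal ones. Sox10 is in both the Schwann cell and the melanocyte list. Likewise none of the probe sets of Merkel cell, fibroblast, endothelial, hair follicle, sebaceous or immune markers was called. At the shares called among all tested probe sets, 0.0733% lower and 0.393% higher, such short lists would seldom hold a call. The medians of these 9 lists ran from -0.048 for sebaceous genes to 0.039 for fibroblast genes. Single markers reached 0.49 (SE 0.32) for Cd74, of antigen-presenting cells, and 0.25 (SE 0.08) for the melanocyte gene Mlana. Lgr5, of the hair follicle list, stood at 0.25 (SE 0.12) and 0.099. In the other direction, Scd1, of the sebaceous list, stood at -0.25 (SE 0.13) and -0.061. The part of these markers in the fall of Pcdhb19 was not tested.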

How the data were processed

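The authors deposited log2 expression values per probe set, made with RMA per the submitters' processing notes, whose version is not given in the sources used here. Base 2 was taken from the values, which ran from 3.06 to 13.0 in the first cKO array. Per the labels, 25 ng of RNA were amplified in 17 cycles. RMA includes quantile normalisation, so a shift of all genes together cannot be seen. Scanner files were not used here. Of 45141 rows, 104 controls were left out. Genes come from the platform annotation (28898 rows with 1 gene, 551 with several, 15588 unnamed), with symbols updated and gene order taken from a RefSeq table (GRCm38.p6). All 29 members matched it.

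The contrast of cKO and WT was fitted over all 45037 probe sets, with no filter on low values, by limma 3.58.1 in R 4.3.3 (lmFit, eBayes). P-values are two-sided, adjusted by Benjamini-Hochberg and called under 0.05. The procedure was checked on simulated data, with no effects shared within an array and with planted changes larger than those of most members. The check does not cover smaller differences. The 4 arrays per group limit the precision. The members and lists were chosen with earlier results of these data known. The rule for named genes took Ehmt2, called members, the largest rise and fall and highest mean in each cluster, the other probe sets of these genes, the nearest and intervening genes, and up to 4 genes per list, called ones first, then by size of change. All further members, Krt5, Krt14, Ngfr, Sox10, the split of the beta cluster and the bands of 0.5 and 0.3 were chosen after their values were known. Alternatives were other scalings, a filter, array weights, thresholds, rules for several probe sets of a gene, and arrays left out. No sequence is shown. Plots were drawn with matplotlib 3.10.9.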

Additional observations from a re-analysis of the deposited data

Results flagged for a closer look

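Of the 58 groups of 4 arrays (29 members in WT and in cKO), 1 held an array far from the others: Pcdhb16 at 1441358_PM_at, where cKO 4 read 4.52 (log2) and the next cKO array 4.66, a gap of 0.833 of the whole range of the group. Chance places such an array in about 1 of 20 groups.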

How the results depend on the processing

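The call of Pcdhb19 held in all 17 alternatives that could test it, with a log2 difference of -1.11 to -0.95 and a limma adjusted p of 0.000918 to 0.0288. With only the upper 50% of probe sets by mean, no member was left to test. The count of called members, all of them lower beta probe sets, was 1 to 2 when each array was left out, 3 with array weights, and 2 when cKO 2 and WT 4 were left out together (chosen after seeing the data). No alternative called an alpha probe set or a beta probe set higher. The count over all probe sets, 210, was 104 (without WT 1) to 356 (without WT 4) when each array was left out, with 108 without cKO 3, 112 without WT 3 and 131 without cKO 2, 132 in the upper 50%, 758 with array weights, 657 without both cKO 2 and WT 4, and 99 and 343 at thresholds of 0.01 and 0.1. The median of the alpha probe sets moved to -0.077 with array weights, and the difference of Pcdhb5 turned to 0.0018 without both cKO 2 and WT 4. With the replicate number as a block, 175 probe sets and 1 member were called. Same-numbered arrays did not deviate together throughout (correlations 0.134, 0.221, -0.624 and 0.368), so the numbers are not taken as pairs. The causes of these shifts were not tested. All members have signals below the array median.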
